A study of Mus musculus with 23 samples.

Results

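The RNAs of 10 mouse genes of general pluripotency were followed through 6 lists of CTCF crosslink sites: Pou5f1, Sox2, Sall4, Lin28a, Lin28b, Utf1, Dppa4, Tdgf1, Trim28 and Trim71. They were chosen by name, as genes that belong to the pluripotent state at large rather than to naive stem cells alone, from the 55413 genes that GENCODE M21 annotates on chromosomes 1 to 19, X and Y. A site belonged to a gene when it lay inside the annotated gene body (mm10, GRCm38) on the strand of that gene. The question was how many sites CTCF left on these RNAs, where on the RNA they lay, and how the counts differed between stem cells of the embryo (ESCs) and the neural progenitors made from them (NPCs), between intact CTCF and CTCF without zinc finger 1, and between crosslinked cells and cells that saw no UV light.

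Pluripotent cells can form every tissue of the embryo. Pou5f1 (Oct4) and Sox2 bind DNA together and hold this state, and they stay on for some time after naive factors such as Esrrb and Klf4 have gone. Lin28a and Lin28b block the maturation of let-7 microRNAs, which in turn repress Lin28 and Trim71, so that loss of the Lin28 proteins and gain of let-7 go together as cells differentiate. CTCF is a zinc finger protein that organizes chromatin loops and also touches RNA, in part through zinc finger 1.

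All cells came from the mouse ESC line E14, in which both endogenous CTCF alleles carried a degron (CTCF-AID2) together with OsTIR1(F74G), and in which a Flag-Halo-tagged rescue CTCF, either WT or ΔZF1, was induced by doxycycline. Every group, controls included, had received 1 µM 5-Ph-IAA to degrade the endogenous protein and 1 µg/mL doxycycline to induce the rescue, for 24 h. ESCs were kept with leukemia inhibitory factor and both inhibitors of the naive medium, and NPCs had spent 2 days on laminin without them. Crosslinked cells were given 400 mJ/cm2 of UV light at 254 nm, and tagged CTCF was precipitated from nuclei with anti-Flag. The bound RNA was copied into cDNA, which ends where reverse transcription stops at the crosslink, and this cDNA was sequenced (iCLIP2). In each cell type there were 3 groups: WT and ΔZF1, both crosslinked, and noXL, which was not crosslinked and carried the WT rescue, so that ΔZF1 had no noXL control of its own. Counts below are given in the order WT, ΔZF1, noXL. Each group had 4 libraries except NPC WT, which had 3, and both rescue lines descended from 1 clone of the degron line.

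The libraries of a group were merged before sites were called, so each group is 1 list and no difference below has a replicate check, a test or a p-value. Intervals are 95% Wilson intervals that cover counting error only. They treat each site as independent, but sites often lie close together, as the 100 Tdgf1 sites of ESC WT made 62 clusters when merged within 8 nt. The intervals are therefore too narrow where sites cluster. The lists held between 102002 (NPC noXL) and 429119 (ESC WT) sites in genes, and the read depth behind them is unknown. To set lists of unequal size side by side, a ratio of sites was divided by the ratio of genic sites of the same lists and given on the log2 scale after adding 1 to each count (scaled log2 ratio). A gain or loss shared by a whole list, with UV light or with ΔZF1, is removed by this scaling. A ratio near 0 therefore means a change like that of all genic sites, not the absence of a change. A gene was compared where both lists together held at least 20 of its sites, and called higher or lower at a scaled log2 ratio of 1 or more, or of -1 or less. A gene that reached 20 sites through 1 list and was near 0 in the other had to pass the limit, so a count of called genes is in part set by this minimum. A site count follows how much of an RNA is in the nucleus as well as how CTCF touches it. RNA levels were not measured in these lists, so these 2 quantities cannot be told apart, nor can fewer cells that make an RNA and less RNA per cell.

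The cell labels were checked against marker genes. Markers of stem cells (6 genes, of which Pou5f1 is also one of the 10 and the others are naive factors) held 1155, 561 and 296 sites in the ESC lists, and 44, 24 and 22 in the NPC lists. Markers of neural progenitors (5 genes) held 2, 0 and 0 sites in the ESC lists and 28, 32 and 17 in the NPC lists. In every NPC list the only neural marker with 5 or more sites was Nes, an intermediate filament of neural stem cells. Markers of mesoderm and endoderm (6 genes) had 0 sites in all 6 lists. The NPC label thus rests here on the loss of stem cell markers and on 1 neural marker.

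Selected sites are shown first, as 27 bases of the RNA strand read 5′ to 3′ from the mm10 genome, with the called crosslink base in capitals. The counts and ratios further below are taken over all sites of a gene and do not rest on these positions. The first 4 are the only positions of these genes that were called in all 4 UV lists. They lie in the first coding exon of Pou5f1 (chr17:35506138-35506164, plus strand), in a coding exon of Sall4 (chr2:168755605-168755631, minus strand), in a coding exon of Trim71 (chr9:114513281-114513307, minus strand) and in the 5′ UTR of Trim71 (chr9:114564309-114564335, minus strand).
Pou5f1 35506151: cccaccaggtgggGgtgatgggtcagc
Sall4 168755618: ctcaaggtccactTacaacgacaccct
Trim71 114513294: cgtcctgggcagtTtgaccgaccggct
Trim71 114564322: tccgatcagtcccAataacccgcgttc

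The next set holds the highest scoring site of each of 5 genes in the list where that gene's result is described below, for ESC WT the 5′ UTR sites of Tdgf1 (chr9:110946083-110946109, minus strand) and Trim28 (chr7:13024394-13024420, plus strand) and the 3′ UTR site of Sox2 (chr3:34651641-34651667, plus strand), and for NPC WT the 5′ UTR site of Lin28a (chr4:134018806-134018832, minus strand) and an intron site of Lin28b (chr10:45473478-45473504, minus strand).
Tdgf1 110946096: tcctccgaagtccTcaatcacaaaccg
Trim28 13024407: ctccaggccgcggCtctttctgcgagc
Sox2 34651654: gcggggagggcggGggaatcggaccat
Lin28a 134018819: tcttctccgaaccAcccctttgcctcc
Lin28b 45473491: gtgggataagggtTaagtaaagggtaa

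The score is the caller's own measure of how strongly a site stands out, with a median of 2.56 over all sites of the ESC WT list. The Tdgf1 site, 62 nt from the start of the gene, scored 192 with WT CTCF, 116 with ΔZF1 and 176 without UV in ESCs, and was called in no NPC list. The Trim28 site scored 195, 59.0 and 73.2 in the ESC lists, and in NPCs 36.2 with WT CTCF and 24.6 without UV, with no call for ΔZF1. Of the 5 sites of this set, all but that of Lin28b were also called in a noXL list. The Pou5f1 site scored 65.7, 48.3 and 16.8 in the ESC lists, and in NPCs 12.2 with WT CTCF and 0.110 with ΔZF1. Of the 4 positions in all UV lists, the Sall4 site and the coding site of Trim71 were called in neither noXL list, with scores from 0.961 to 4.60 and from 3.05 to 19.4.

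The 10 genes together held 584, 295 and 175 sites in ESCs (WT, ΔZF1, noXL) and 400, 234 and 202 in NPCs. Of the 10 genes compared between NPC WT and ESC WT, 2 were higher in NPCs (Lin28a and Lin28b), where 11.5% of all compared genes were higher, and 2 were lower (Dppa4 and Tdgf1), where 10.4% of all compared genes were lower. The median scaled log2 ratio was 0.10 over the 10 genes and 0.04 over all 6730 compared genes. With 2 genes each way, these counts are near the background. By name these are genes kept on differentiation, which the counts of Tdgf1, Dppa4 and Lin28b went against, the last nearly without sites in ESCs, and the ratios of Pou5f1, Sox2, Utf1 and Trim71 have intervals that reach past a limit.

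**Figure D1:**
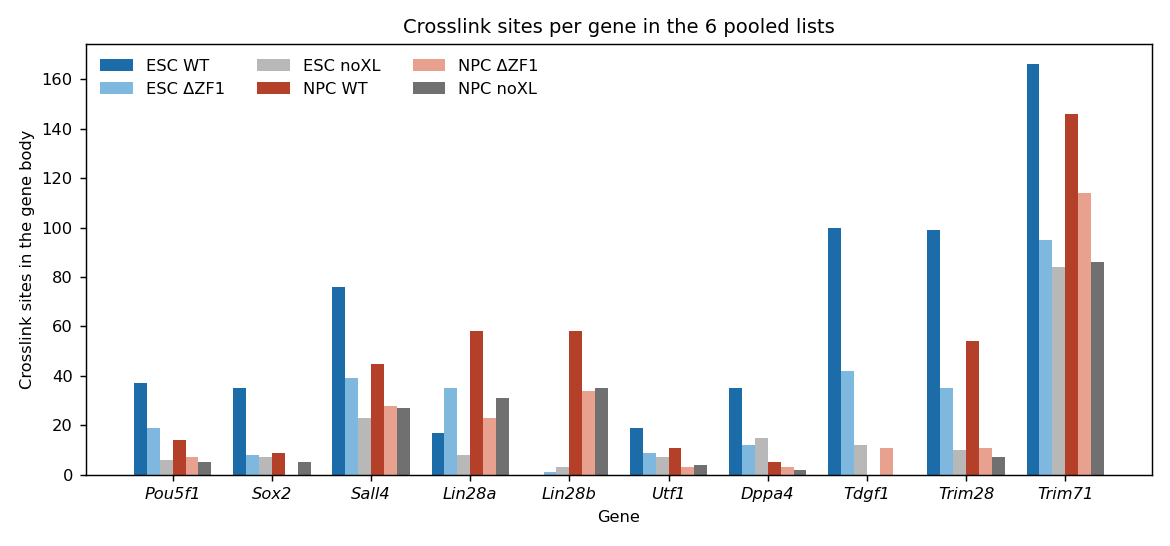
Crosslink sites in the gene body (vertical axis, number of sites) of each of the 10 genes (horizontal axis) in the 6 pooled lists, 1 bar per list and no error bars because each group is 1 list. Trim71 has the tallest bars in every list, Tdgf1 has 100 sites with WT CTCF in ESCs and 0 in NPCs, and Lin28b has 0 and 58.

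Pou5f1, the octamer-binding factor that defines pluripotent cells, held 37, 19 and 6 sites in ESCs (WT, ΔZF1, noXL) and 14, 7 and 5 in NPCs. The gene lies at chr17:35506018-35510772 on the plus strand, and 27 of the 37 ESC WT sites and all 14 NPC WT sites were in exons. The scaled log2 ratio of NPC WT to ESC WT was -0.44 (-1.38 to 0.37), within the limits. Of the 14 NPC WT sites of Pou5f1, 8 (57.1%, 32.6 to 78.6) lay within 5 nt of an ESC WT site, beside 28.2% for all genic sites, which were not matched for site density. Processed copies of Pou5f1 exist elsewhere in the genome, and how reads matching several places were treated is not given in the sources used here.

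Sox2, the partner of Pou5f1 that is also kept in neural progenitors, held 35, 8 and 7 sites in ESCs (WT, ΔZF1, noXL) and 9, 0 and 5 in NPCs. A count of 0 allows up to 3 sites, or 1.958 per 100000 genic sites of the NPC ΔZF1 list, below the 3.91 seen in NPC WT. The NPC WT to ESC WT ratio was -0.95 (-2.10 to -0.03), just inside the limit, and past it under 6 of the alternatives, from -1.85 without scaling to -1.003 with a pseudocount of 0.5. Sox2 has a single exon (chr3:34650405-34652461, plus strand) that lies within the noncoding gene Sox2ot on the same strand, so its sites cannot be assigned to one of these transcripts. In ESC WT, 19 sites were in the coding part and 16 in the 3′ UTR, and the G-rich 3′ UTR position shown above was the highest scoring.

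Sall4, a zinc finger repressor that brings the NuRD complex to DNA, held 76, 39 and 23 sites in ESCs (WT, ΔZF1, noXL) and 45, 28 and 27 in NPCs. Its NPC WT to ESC WT ratio was 0.16 (-0.39 to 0.67). The place of its noXL sites differed between the cell types: 21 of 23 ESC noXL sites and 9 of 27 NPC noXL sites were in exons, with 18 NPC noXL sites in introns. With WT CTCF, 69 of 76 sites were exonic in ESCs and 31 of 45 in NPCs. Genes of the NuRD complex, which Sall4 recruits, were all 11 compared between NPC WT and ESC WT, with 0 higher, 0 lower and a median of 0.33, beside 11.5% higher and 10.4% lower among all compared genes.

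Lin28a, the RNA-binding protein that keeps let-7 precursors from being processed, held 17, 35 and 8 sites in ESCs (WT, ΔZF1, noXL) and 58, 23 and 31 in NPCs. The ESC lists had sites in exons alone, with 0 intron sites in all 3. The NPC lists also had intron sites, 35 of 58 in NPC WT, 12 of 23 in NPC ΔZF1 and 29 of 31 in NPC noXL. Most of these fell in introns 2 and 3 of the 6 introns, with 19 and 9 in NPC WT and 14 and 12 in NPC noXL.

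Lin28a was higher in NPC WT than in ESC WT, with a scaled log2 ratio of 2.61 (1.90 to 3.44). It was also higher without UV light, where NPC noXL over ESC noXL gave 2.39 (1.42 to 3.61), all of it from introns, since exon sites numbered 8 in ESC noXL and 2 in NPC noXL. Counting exon sites alone, scaled to exon sites, brought the WT ratio to 1.18. Within NPCs the ratio of WT to noXL was -0.29 (-0.89 to 0.35). With exon sites alone that comparison was past the limit, since NPC WT had 23 exon sites and NPC noXL 2.

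Lin28b, the paralog of Lin28a, held 0, 1 and 3 sites in ESCs (WT, ΔZF1, noXL) and 58, 34 and 35 in NPCs. The count in NPC WT was at least 19.3-fold higher than in ESC WT before scaling, taking 0 as no more than 3 sites. In NPC WT, 39 sites were exonic, of which 24 were in the 3′ UTR and 9 in coding sequence, and 19 were in introns of a gene that spans chr10:45376620-45486395. The rise was present in every NPC list, noXL included (3.73, 2.49 to 5.72), and the NPC WT to NPC noXL ratio was -0.46 (-1.05 to 0.16). Of 130 Lin28b positions over all lists, 129 were called in 1 list only.

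Trim71 (LIN41), a ubiquitin ligase and RNA-binding protein that is a classical let-7 target, had the largest count in each list, with 166, 95 and 84 sites in the ESC lists and 146, 114 and 86 in the NPC lists. This is 28.4% of the sites of the 10 genes in ESC WT and 48.7% in NPC ΔZF1. The NPC WT to ESC WT ratio was 0.71 (0.39 to 1.03). Exon and intron sites differed in this respect. With WT CTCF its exons held 110 sites in ESCs and 59 in NPCs, which gave -0.12 scaled to exon sites, whereas intron sites numbered 56 and 87. In NPC noXL only 8 of 86 sites were exonic, against 42 of 84 in ESC noXL. Most intron sites lay in intron 1, by far the longest (chr9:114525122-114562304), with 54, 37 and 38 in the ESC lists and 76, 63 and 65 in the NPC lists, and intron 2 held 2, 4 and 4 and 10, 13 and 13.

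The let-7 microRNAs link these genes, so the sites were set against let-7 seed matches. The 8 mouse let-7 miRNAs matched in RefSeq (GRCm38), a, b, c, d, e, f, g and i, share the seed shown in capitals in 2 of them.
mmu-let-7a-5p: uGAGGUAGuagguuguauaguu
mmu-let-7i-5p: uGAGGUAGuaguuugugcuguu

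The complement of that seed, CTACCTC on the RNA strand, occurred 2 times in the 3′ UTR of Lin28a, 4 times in that of Lin28b, 4 times in that of Trim71, once in that of Sall4, and in none of the 3′ UTRs of the other 6 genes. Of 3′ UTRs within 20% of the same length, 15.5% held such a match for Lin28a, 25.6% for Lin28b, 28.9% for Trim71 and 11.9% for Sall4. The Trim71 match at chr9:114509048-114509054 (minus strand) was the only 3′ UTR match with a crosslink site within 15 nt in more than 1 list, 1 site each in ESC WT, ESC ΔZF1 and NPC WT and 0 in both noXL lists.
Trim71 114509048: tatggattttCTACCTCaattttggca

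Each of the other 3′ UTR matches had at most 1 site within 15 nt in at most 1 list, and a seed match is a description of the letters only. Most of the Trim71 3′ UTR sites, 60 in the first of these lists and 22 in the last, lay elsewhere. Of the 14 genes of let-7 processing and the Lin28 pathway, 11 were compared between NPC WT and ESC WT, and 2 were higher, 1 was lower and the median was 0.08, near the 11.5% and 10.4% of all compared genes. Higher were Igf2bp3, an RNA-binding protein of early embryos (140 against 88 sites, 1.56), and Hmga2, a chromatin protein and let-7 target (29 against 25, 1.11). Lower was Ago1, an Argonaute that carries microRNAs (8 against 78, -2.24). Without UV light NPC noXL to ESC noXL gave 1.73 for Igf2bp3, 1.15 for Hmga2 and -1.17 for Ago1. The ratios of NPC WT to NPC noXL were -0.53, -0.66 and -1.91.

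Utf1, a chromatin-bound transcription factor of pluripotent cells, held 19, 9 and 7 sites in ESCs (WT, ΔZF1, noXL) and 11, 3 and 4 in NPCs. The NPC WT to ESC WT ratio was 0.16 (-0.94 to 1.16), an interval wide enough to hold an increase past the limit. Utf1 is short (chr7:139943789-139945112, plus strand), and 1 site in all lists together lay in its intron. For its length it was well covered with and without UV light. It had 14.7 exon sites per kb in ESC WT and 5.70 in ESC noXL, above 87.2% and 95.7% of protein-coding genes with at least 5 exon sites.

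Dppa4, a chromatin protein of early embryos, held 35, 12 and 15 sites in ESCs (WT, ΔZF1, noXL) and 5, 3 and 2 in NPCs. It was lower in NPC WT than in ESC WT, at -1.69 (-3.22 to -0.60). In the ESC lists 13, 8 and 9 of its sites were in introns, and in the NPC lists none was. Its paralog Dppa2 moved the same way, from 32 sites to 0 with WT CTCF.

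Tdgf1 (Cripto), the co-receptor through which cells receive Nodal, held 100, 42 and 12 sites in ESCs (WT, ΔZF1, noXL) and 0, 11 and 0 in NPCs. The count in NPC WT was at least 33.3-fold lower than in ESC WT before scaling. Of the 100 ESC WT sites, 57 were exonic and 43 intronic, the introns being intron 1 (14 sites), intron 2 (9), intron 3 (3) and intron 6 (17). The 11 sites of NPC ΔZF1, of which 10 were exonic, stand against 0 in NPC WT, where 0 allows up to 1.304 sites per 100000 genic sites and NPC ΔZF1 had 7.18. These 11 sites were too few for the comparison of NPC ΔZF1 with NPC WT. Processed copies of Tdgf1 are known as well, with the same limit as for Pou5f1.

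Of 12 genes of the Nodal pathway around Tdgf1, 8 were compared between NPC WT and ESC WT, 2 higher and 1 lower, with a median of 0.13, beside 11.5% higher and 10.4% lower among all compared genes. Higher were Acvr2a, an activin receptor (31 against 25 sites, 1.20), and Smad4, the shared signal transducer (51 against 47, 1.01). Lower was Lefty2, a secreted Nodal inhibitor (2 against 22, -2.04).

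Trim28 (KAP1), the corepressor that KRAB zinc finger proteins bring to transposons, held 99, 35 and 10 sites in ESCs (WT, ΔZF1, noXL) and 54, 11 and 7 in NPCs. Its NPC WT to ESC WT ratio was 0.04 (-0.45 to 0.50). Of its sites, 29 of 54 NPC WT sites (53.7%, 40.6 to 66.3) lay within 5 nt of an ESC WT site, beside 28.2% of all genic sites, again not matched for site density. With WT CTCF its coding exons held 62 sites in ESCs and 35 in NPCs, but 1 in each noXL list. Intron 4 (chr7:13025777-13027616) held 16, 14 and 3 sites in the ESC lists and 1, 0 and 1 in the NPC lists. Of 11 genes that work with Trim28 in repression, 10 were compared between NPC WT and ESC WT, 0 were higher and 2 were lower (11.5% and 10.4% of all compared genes), with a median of -0.16. Lower were the histone methyltransferase Setdb1 (35 against 174 sites, -1.38) and Fam208a, a subunit of the HUSH complex (56 against 302, -1.51).

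**Figure D2:**
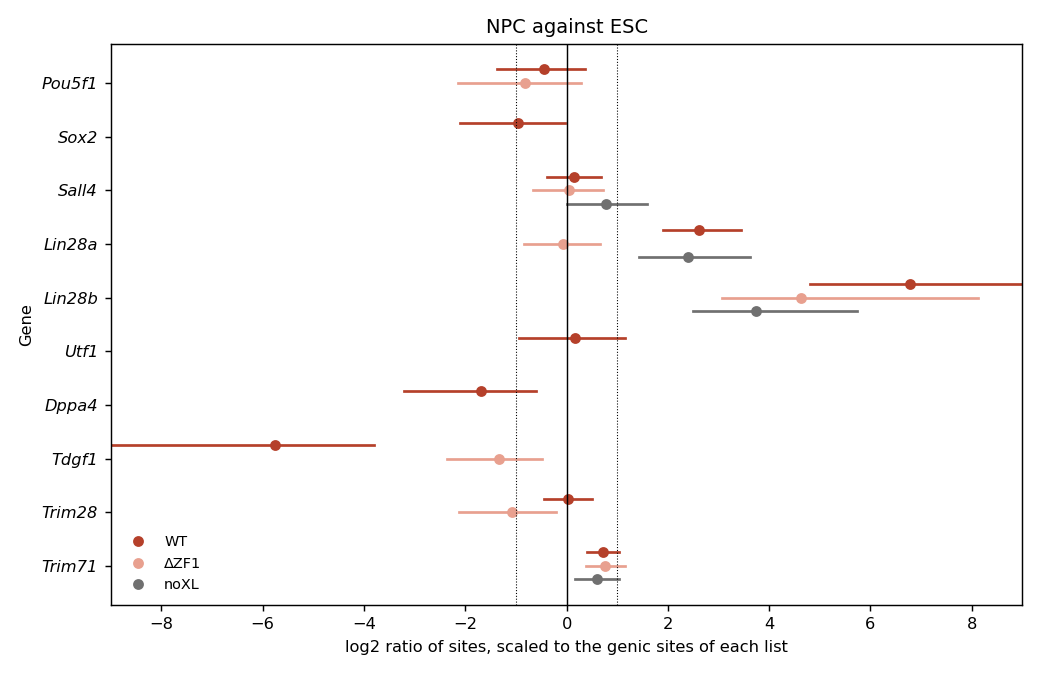
Scaled log2 ratio of sites in NPC over ESC (horizontal axis, dotted lines at the limits of -1 and 1) for each gene (vertical axis) in WT, ΔZF1 and noXL lists, with 95% counting intervals where the gene was compared, open-ended for Lin28b and Tdgf1 in WT, whose points rest on the 1 added to a count of 0. Lin28a lies at 2.61 in WT and at 2.39 in noXL but at -0.08 in ΔZF1, and Trim28 lies at 0.04 in WT and at -1.08 in ΔZF1.

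Naive factors and formative genes were set beside the 10 genes with no minimum of sites. The 12 naive factors together held 1431, 702 and 392 sites in ESCs (WT, ΔZF1, noXL) and 39, 41 and 25 in NPCs. With WT CTCF, Tfcp2l1 had 343 sites in ESCs and 5 in NPCs (-4.94), and Nanog had 85 and 14 (-1.62). The 9 naive factors that had 20 sites were all lower in NPC WT than in ESC WT, with a median of -4.94, or -3.56 with genes at 0 set to 3 sites, but they had that many sites only through ESCs, which nearly fixes the direction. The 14 formative and early neural genes held 26, 34 and 11 sites in ESCs and 155, 126 and 89 in NPCs. Nearly all of the NPC WT sites were in the methyltransferase Dnmt3b (96 sites, against 13 in ESC WT), Nes (28 against 2) and the transcription factor Zic2 (21 against 1), the 3 that could be compared, and these passed the minimum through NPCs.

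In cells with the ΔZF1 rescue, 7 of the 10 genes were compared between NPC and ESC, as Sox2, Utf1 and Dppa4 had too few sites. Only Lin28b was higher (34 against 1 site, 4.64, 3.06 to 8.13), beside 10.9% of all compared genes, and 2 genes were lower, beside 14.1% of all compared genes. These were Tdgf1 (-1.33, -2.37 to -0.48) and Trim28 (-1.08, -2.12 to -0.20). Both calls ended with sites merged within 8 nt (-0.99 each) and with exon sites only (-0.50 and -0.83), and that of Trim28 also at the median score or above (-0.87) and with median ratio scaling (-0.99). Lin28a did not differ past the limit (-0.08, -0.85 to 0.65), and Trim71 was at 0.77 (0.38 to 1.16). The median was -0.08 over these 7 genes and -0.08 over all genes.

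Without UV light 4 of the 10 genes were compared between NPC and ESC, and Lin28a and Lin28b were higher, beside 11.1% of all compared genes, while 0 were lower, beside 12.3% of all compared genes. Sall4 was at 0.79 (0.00 to 1.59) and Trim71 at 0.60 (0.17 to 1.03). For Lin28a the interval without UV light overlapped that with UV light, in the count over the whole gene body.

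In ESCs 9 of the 10 genes were compared between ΔZF1 and WT. Lin28a was higher (35 against 17 sites, 1.98, 1.20 to 2.85), beside 6.84% of all compared genes, and Sox2 was lower (8 against 35, -1.02, -2.23 to -0.07), beside 5.45% of all compared genes. The Sox2 call was lost at the median score or above (-0.22) and could not be made without sites shared with other genes. The other 7 genes lay between -0.50 for Trim28 and 0.18 for Trim71, with Pou5f1 at 0.05, Sall4 at 0.03, Utf1 at -0.02, Tdgf1 at -0.25 and Dppa4 at -0.49. The median was -0.02 over the 9 genes and 0.04 over all genes. With exon sites only, 3 of them were lower, Sox2, Dppa4 and Trim28, beside 6.14% of all compared genes. Before scaling, the ESC ΔZF1 list was smaller by 0.98 on the log2 scale, and the NPC ΔZF1 list by 0.59. The added Lin28a sites of ESC ΔZF1 were in the 3′ UTR (21 against 14), in coding exons (8 against 0) and in the 5′ UTR (6 against 3).

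In NPCs 6 genes were compared between ΔZF1 and WT, 0 were higher, beside 5.76% of all compared genes, and Trim28 was lower, beside 7.36% of all compared genes. Trim28 had 11 sites in NPC ΔZF1 and 54 in NPC WT, a ratio of -1.61 (-2.63 to -0.79), and its coding sites went from 35 to 4. Lin28a was at -0.71 (-1.44 to -0.06), opposite in sign to its ratio in ESCs. Pou5f1 was at -0.32, Sall4 at -0.08, Lin28b at -0.17 and Trim71 at 0.23, and the median was -0.24 over the 6 genes and -0.04 over all genes. Of the repressor partners of Trim28, 10 were compared here and 1 was higher, the HUSH subunit Pphln1 (71 against 39 sites, 1.44), and 0 were lower, whereas in ESCs Pphln1 was lower with ΔZF1 (8 against 45 sites, -1.38).

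**Figure D3:**
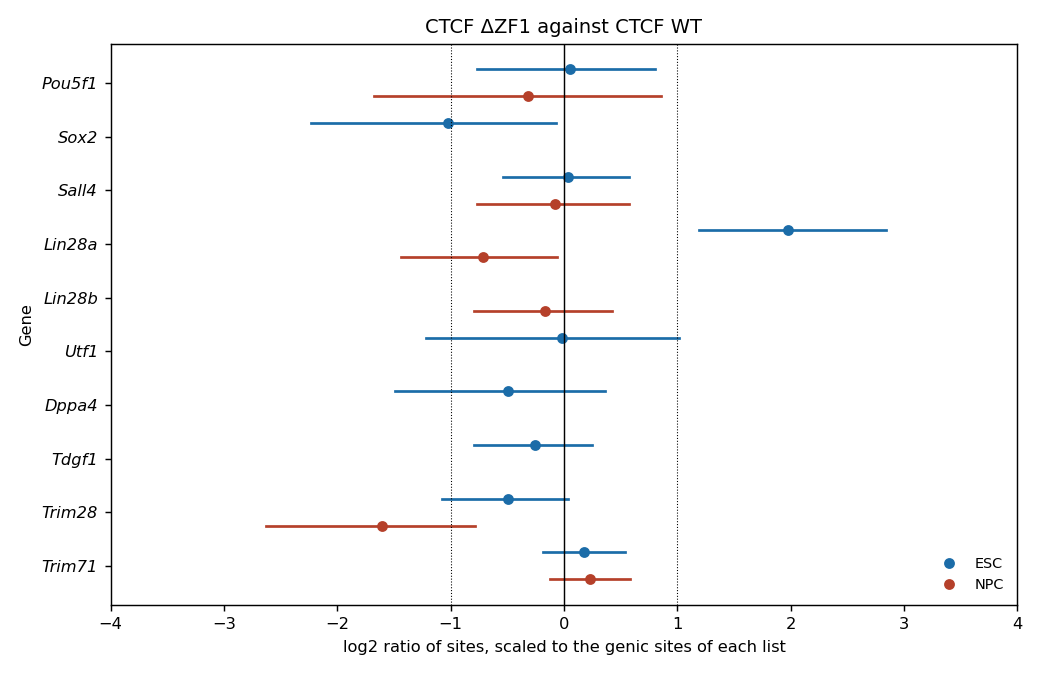
Scaled log2 ratio of sites in ΔZF1 over WT (horizontal axis, dotted lines at -1 and 1) for each gene (vertical axis) in ESCs and NPCs, with 95% counting intervals where the gene was compared. Lin28a lies at 1.98 in ESCs and -0.71 in NPCs, and Trim28 at -0.50 and -1.61.

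The noXL lists set the background of the method. In ESC WT against ESC noXL 9 genes were compared, and Tdgf1 (1.45, 0.70 to 2.40) and Trim28 (1.68, 0.88 to 2.72) were higher with UV light, beside 8.12% of all compared genes, while 0 were lower, beside 6.6% of all compared genes. Pou5f1 was at 0.93 (-0.09 to 2.32) and Sox2 at 0.66 (-0.33 to 1.95), and Sall4, Utf1, Dppa4, Lin28a and Trim71 lay between -0.53 and 0.17. These ratios leave out the list-wide gain with UV light. Before scaling, the WT list was larger than the noXL list by 1.51 on the log2 scale in ESCs and by 1.17 in NPCs. Among 5 genes compared in NPC WT against NPC noXL, Trim28 was higher (1.61, 0.67 to 2.88), beside 10.5% of all compared genes, and 0 were lower, beside 6.51% of all compared genes. Sall4, Lin28a, Lin28b and Trim71 lay between -0.46 and -0.29 there. With exon sites only Trim71 (59 against 8 sites) was at 1.21 and Lin28a at 1.48, both past the limit, beside 9.49% of all compared genes higher. At the median score or above Lin28b was lower (-1.21), beside 10.9% of all compared genes. With WT CTCF, Trim28 was higher than noXL in ESCs as well as NPCs, while Tdgf1, Pou5f1, Sox2, Utf1 and Dppa4 had too few sites for this comparison in NPCs.

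Against the same noXL lists, which carried WT CTCF, ESC ΔZF1 had 3 of 7 compared genes higher, beside 7.86% of all compared genes, and 0 lower, beside 6.56% of all compared genes. They were Lin28a (1.47), Tdgf1 (1.20) and Trim28 (1.18). NPC ΔZF1 had 0 of 4 higher, beside 7.19% of all compared genes, and 1 lower, Lin28a (-1.002, -1.79 to -0.25), beside 8.03% of all compared genes. That call was lost at the median score or above (-0.95), and in exons Lin28a ran the other way, with 11 sites in NPC ΔZF1 and 2 in NPC noXL. Trim28, at 11 against 7 sites, had too few sites for this comparison. The comparisons of NPC WT and NPC ΔZF1 with noXL share the same noXL list.

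UV light favours crosslinks at uridine, so the base at the site was read for each gene. In the 10 genes together 61.3% (57.3 to 65.2) of the sites were on uridine with WT CTCF in ESCs, 54.2% with ΔZF1 and 29.7% without UV, and in NPCs the shares were 63.3%, 59.8% and 27.7%. All genic sites were at 60.6%, 49.2% and 28.3% in ESCs and at 64.6%, 59.0% and 27.9% in NPCs. Sites in runs of at least 3 uridines made up 25.2% and 27.8% with WT CTCF in ESCs and NPCs, and 6.86% and 7.43% in the noXL lists. For all genic sites these shares were 28.3% and 29.2% with WT CTCF, and 6.57% and 6.70% in the noXL lists. The uridine shares of the 10 genes lay near those of their lists, while with WT CTCF in ESCs adenine was at 8.56% against 11.3% of all genic sites. Within the genes Tdgf1 stood at 70.0% (60.4 to 78.1) in ESC WT and 33.3% in ESC noXL, Trim28 at 67.7% and 10.0%, and Utf1 at 31.6% (15.4 to 54.0) and 28.6%. Trim28 was at 63.0% in NPC WT and at 27.3% (9.75 to 56.6) in NPC ΔZF1, on 11 sites.

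Exons held 74.1%, 66.4% and 60.6% of the sites of the 10 genes in ESCs and 59.5%, 53.8% and 29.7% in NPCs. All genic sites were at 66.6%, 68.1% and 59.8% in ESCs and at 73.1%, 60.4% and 57.4% in NPCs, so the 10 genes had the lower exon share in NPC noXL by far. Trim71 carried much of this, and without it the exon share was 77.3% in ESC WT, 70.5% in NPC WT and 44.8% (36.1 to 53.9) in NPC noXL. Lin28a and Sall4 supplied most of the other intron sites of NPC noXL, 29 and 18. Intron sites of the 10 genes together were seldom next to an exon, with 21 of 151 within 100 nt of one in ESCs and 15 of 162 in NPCs with WT CTCF. Trim71, with long introns, had 1 of 56 and 2 of 87 there. Other genes differed, with 5 of 10 for Pou5f1 in ESC WT and 6 of 7 for Trim28 in NPC WT.

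**Figure D4:**
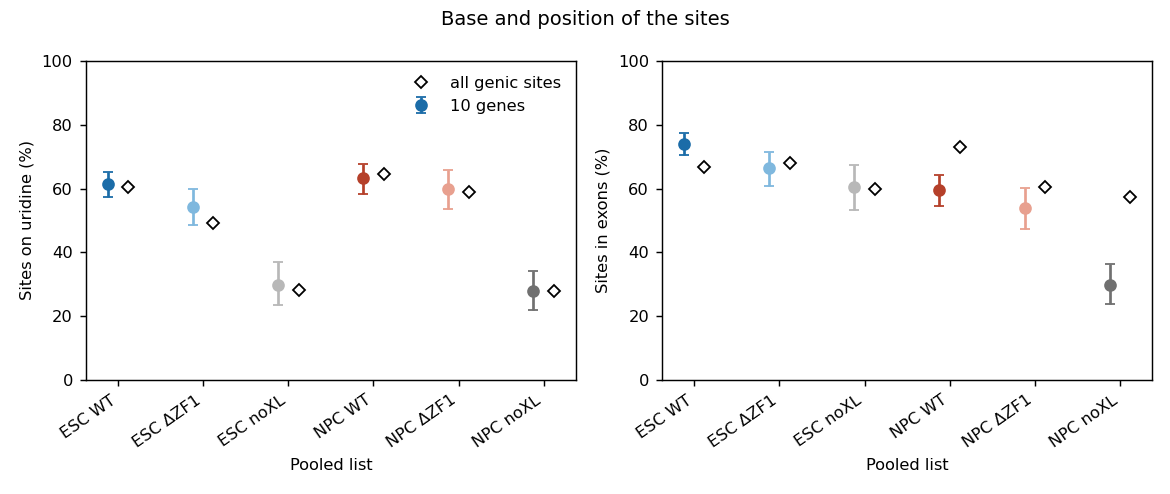
Share of sites on uridine (left, percent) and in exons (right, percent) in each of the 6 pooled lists (horizontal axis), for the 10 genes (filled points with 95% Wilson intervals) and for all genic sites (open diamonds). The uridine shares lie between 49.2% and 64.6% in UV lists and between 27.7% and 29.7% in noXL lists for both, whereas the exon share of the 10 genes in NPC noXL, 29.7%, lies far below the 57.4% of all genic sites.

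Sites near the start of transcripts were read apart from the rest. Within 100 nt downstream of an annotated start lay 46 of 584, 29 of 295 and 8 of 175 sites in the ESC lists and 26 of 400, 10 of 234 and 8 of 202 in the NPC lists. In ESC WT 39.1% (26.4 to 53.5) of these were on uridine, against 63.2% (59.0 to 67.2) of the sites farther away, and in NPC WT 38.5% against 65.0%. The noXL lists had 4 of 8 on uridine against 28.7% farther away in ESCs and 2 of 8 against 27.8% in NPCs. Their median score was 7.85 in ESC WT, against 3.18 farther away, with 5.05 against 3.58 in ESC noXL and 2.45 against 3.63 in NPC noXL. The shown start-proximal sites of Lin28a, Tdgf1 and Trim71 are on A, T and A.

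**Figure D5:**
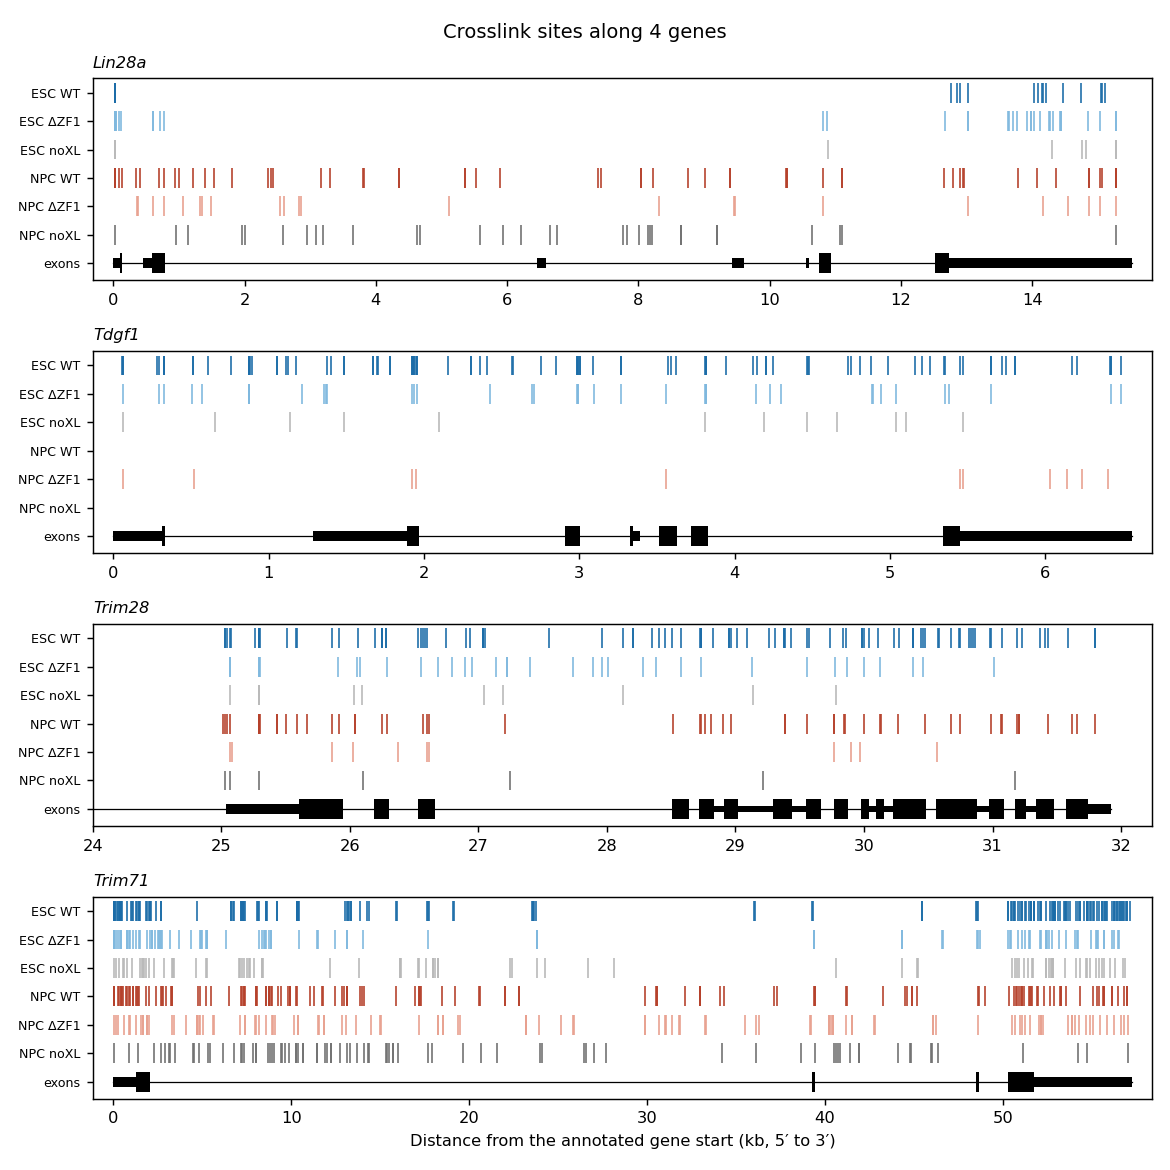
Positions of the crosslink sites along Lin28a, Tdgf1, Trim28 and Trim71 (horizontal axis, distance from the gene start in kb, with the first 24 kb of Trim28 left out) in the 6 lists (1 row of ticks per list, exons as boxes). Lin28a shows intron sites in the NPC lists alone, and Trim71 shows them along intron 1 in all lists.

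Per kb of exon the 10 genes ranked in ESC WT as Tdgf1 (21.7 sites per kb), Trim28 (18.8), Sox2 (17.02), Utf1 (14.7), Dppa4 (13.2), Sall4 (12.5), Pou5f1 (12.01), Trim71 (11.8), Lin28a (4.25) and Lin28b (0). Protein-coding genes with at least 5 exon sites had a median of 7.23 per kb in that list, and 97.9% of them lay below Tdgf1 and 31.0% below Lin28a. In NPC WT the order was Trim28 (11.3), Utf1 (8.96), Trim71 (6.32), Pou5f1 (6.23), Lin28a (5.76), Sall4 (5.60), Sox2 (4.38), Lin28b (4.30), Dppa4 (3.01) and Tdgf1 (0). Neighbours from Utf1 to Trim71 in ESC WT and from Trim71 to Lin28b in NPC WT rest on between 9 and 110 exon sites each, with no replicate spread to part them.

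Few positions recurred. The 6 lists held 1709 distinct positions in these genes, of which 1568 were in 1 list, 123 in at least 2 UV lists, 32 in a UV and a noXL list, and 0 in all 6. Within 5 nt, 22.0% (18.2 to 26.3) of NPC WT sites of the 10 genes lay near an ESC WT site, against 28.2% of all genic sites, and 31.9% (26.8 to 37.4) of the mutant's sites in ESCs lay as close to a WT site, where all genic sites gave 24.2%. In NPCs the mutant's share was 15.0% (11.0 to 20.1), near the 13.1% of all genic sites. The 400 NPC WT sites include 58 of Lin28b, which had no ESC WT site to lie near, and among the other genes the share ran from 5 of 58 for Lin28a to 29 of 54 for Trim28 and 8 of 14 for Pou5f1. Of the WT sites, 9.42% in ESCs and 7.25% in NPCs lay within 5 nt of a site called without UV in those cells, against 7.67% and 5.64% of all genic sites.

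Among 6045 genes with enough sites, those whose 6 counts, each scaled to its list, lay closest to Pou5f1 were Psma3, a proteasome subunit (distance 0.284), the zinc finger gene Zfp930 (0.286) and Serf2 (0.290). Psma3 held 85, 50 and 19 sites in ESCs (WT, ΔZF1, noXL) and 33, 18 and 14 in NPCs. The measure is the distance between scaled log2 counts over 6 lists.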

How the data were processed

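Nuclear RNA bound to Flag-tagged CTCF was profiled by iCLIP2 in E14 mouse cells, and 6 lists of crosslink sites were used, 1 per group. Per the study's methods, the authors used Flexbar to split and trim reads, STAR to place them on mm10, UMI-tools to drop duplicates and bedtools to take the base before each read, and then pooled the libraries of each group and called sites with PureCLIP (the submitters' processing notes name STAR, UMI-tools, bedtools and mm10; versions are not given in the sources used here). Each deposited list gives position, strand and the PureCLIP score, a number with no fixed unit. The postprocessed peaks of the study were not used here.

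Sites were assigned by strand to GENCODE M21 genes (GRCm38.p6) with Python 3.11.15, numpy 2.4.6 and pandas 2.3.3, and counted. Exon took precedence over intron. Ratios used a pseudocount of 1, the genic sites of each list for scaling, a minimum of 20 sites and limits of -1 and 1, and no test was possible with 1 list per group. On simulated lists with 200 genes changed 4-fold, between 95.5% and 98.5% of the compared changed genes passed the limit over the 5 comparisons of NPC with ESC and of ΔZF1 with WT, as did between 2.32% and 3.70% of unchanged genes. The simulated counts were independent Poisson draws, with no clustering of sites and no spread between libraries. These shares check the calculation and are not error rates of the real lists. Depth is unknown, so Wilson intervals cover counting error of sites only. The genes named are the 10 members, and in the other lists those past the limits or used as a contrast. Members and lists were chosen with earlier results of these data known.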

Additional observations from a re-analysis of the deposited data

Results flagged for a closer look

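Lin28a had ratios of opposite sign in the 2 cell types when ΔZF1 was set against WT. The scaled log2 ratio was 1.98 in ESCs (35 against 17 sites), past the limit, and -0.71 in NPCs (23 against 58 sites), within the limits and -0.14 with exon sites only, and with 1 list per group the difference between the cell types was not tested.

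Sites on the strand opposite to a gene were not part of the comparisons. Tdgf1 had 4, 1 and 0 such sites in ESCs (WT, ΔZF1, noXL), at a place where no gene is annotated on that strand. Trim28 had 4, 10 and 3 in ESCs and 2, 0 and 0 in NPCs, all of them inside the gene Zbtb45, which overlaps it on the other strand. The other 8 genes had 0 sites on the other strand in every list.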

How the results depend on the processing

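No paired analysis was possible because each group is 1 list made from merged libraries, and leaving out a library could not be done either. No ratio past the limit turned its sign under an alternative, but with exon sites only 4 ratios within the limits turned sign and passed it: Trim71 in NPC noXL to ESC noXL (0.60 to -1.63), NPC WT to NPC noXL (-0.42 to 1.21) and NPC ΔZF1 to NPC noXL (-0.18 to 1.45), and Lin28a in NPC WT to NPC noXL (-0.29 to 1.48). The counts of genes past the limit that moved by over 1.5 times were these, with the share of all compared genes past that limit under the same setting as a percentage in parentheses. With sites of at least the median score (3.02), 1 gene was higher in NPC WT to ESC WT, 0 were higher and 1 lower in NPC ΔZF1 to ESC ΔZF1, 0 lower in ESC ΔZF1 to ESC WT, 1 lower in NPC WT to NPC noXL and 0 lower in NPC ΔZF1 to NPC noXL. Without scaling, which shifts the median of all genes by between -0.98 and -0.51, 4 were lower in NPC WT to ESC WT (41.9%). In the same setting 5 were lower in ESC ΔZF1 to ESC WT (47.1%) and 2 lower in NPC ΔZF1 to NPC WT (28.4%). All genes split into 5.16% higher and 41.9% lower in NPC WT to ESC WT without scaling. Median ratio scaling left 1 lower (12.5%) and merging sites within 8 nt left 0 lower (13.1%) in NPC ΔZF1 to ESC ΔZF1. With uridine sites only, 0 of 5 compared genes were higher in NPC ΔZF1 to ESC ΔZF1 (12.2%), where Lin28b had too few sites to be compared. In NPC noXL to ESC noXL 0 were higher (11.9%), but only 1 gene, Trim71, was compared, so Lin28a and Lin28b had no value there. With exon sites only, 0 were lower in NPC ΔZF1 to ESC ΔZF1 (11.0%). In exons 1 was higher (8.32%) and 1 lower (Trim71, -1.63, 8.75%) in NPC noXL to ESC noXL, and 3 were lower in ESC ΔZF1 to ESC WT (Sox2, Dppa4 and Trim28, 6.14%). Also in exons, 3 were higher in NPC WT to NPC noXL (Lin28a, Trim28 and Trim71, 9.49%), and 1 higher (5.98%) and 0 lower (7.09%) in NPC ΔZF1 to NPC noXL. A minimum of 10 sites gave 2 lower (Dppa4 and Tdgf1, 15.8%) in NPC noXL to ESC noXL and 1 higher (Tdgf1, 4.17, 7.67%) in NPC ΔZF1 to NPC WT. Leaving out sites shared with other genes left 0 lower in ESC ΔZF1 to ESC WT (5.73%), since the only such gene was Sox2, whose sites all lie in Sox2ot.

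Over all settings 99 of these counts kept within the factor named above and 23 did not. Of the ratios and shares of single genes or lists, 383 stayed inside the counting interval of their main value and 32 did not. Such an interval can be wide, so staying inside it does not mean a small shift. Without scaling, Sox2 in NPC WT to ESC WT went from -0.95 to -1.85, past the limit but inside its interval. Dppa4 in ESC ΔZF1 to ESC WT likewise went from -0.49 to -1.47. Lin28a in NPC WT to ESC WT ran from 1.18 (exon sites only) to 3.03, and in ESC ΔZF1 to ESC WT from 1.00 to 2.43. Trim28 in NPC ΔZF1 to NPC WT ran from -2.41 to -1.45, Dppa4 in NPC WT to ESC WT from -2.58 to -1.17, and Sox2 from -1.85 to -0.60. Trim71 in NPC WT to ESC WT was 0.71, and -0.12 with exon sites only. The comparisons with noXL, their alternatives and the exon share without Trim71 were chosen after seeing the data. Removing sites near noXL sites could not be applied to the noXL lists. The causes were not tested. With no replicate lists and no depth no difference here can be separated from the spread between libraries.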
